A study of Mus musculus with 8 samples.

Results

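The cytochrome P450 enzymes of families 1 to 3, other than the Cyp2b enzymes and Cyp2e1, were followed in the livers of 4 groups of mice. Members were taken by symbol from the deposited count table. Of 19267 genes, 55 had a symbol of family 1, 2 or 3, and 51 remained after the 3 Cyp2b genes and Cyp2e1 were left out. A mean of at least 10 counts over the 8 libraries was required, which kept 41 genes and left out 10. The lowest mean among the members was that of Cyp2j8, at exactly 10 counts, and the highest among those left out was that of Cyp1b1, at 9.5 counts. All 41 members were among the 13993 genes tested. They comprised 2 Cyp1a, 4 Cyp2a, 13 Cyp2c, 11 Cyp2d, 1 Cyp2f, 4 Cyp2j and 4 Cyp3a genes, with Cyp2r1 and Cyp2u1 as the 2 others. The Cyp2d genes included 4 named as pseudogenes and Cyp2d13, which RefSeq annotates as a transcribed pseudogene.

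The study crossed genotype with diet in male C57BL/6 mice that were 9 weeks old at sampling, and sequenced liver RNA from 2 libraries per group. Elf4-/- mice carried floxed Elf4 alleles and Cre recombinase driven by the villin promoter, so that Elf4, an ETS-family transcription factor, was deleted in the intestinal epithelium. WT mice carried the same Cre transgene, per the study's methods. The EtOH groups were pair-fed for 21 days with alcohol at 5% (w/v) in Lieber-DeCarli liquid feed, and the Control groups with feed in which maltose dextrin supplied the same calories. Elf4 itself lay between 0.893 and 4.50 CPM (counts scaled to a fixed library size) in the 8 livers, a level that does not report on a deletion in the intestine.

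Cytochrome P450 enzymes are heme proteins of the endoplasmic reticulum that insert oxygen into drugs, toxins, steroids and fatty acids, with electrons from NADPH delivered by the reductase Por. Families 1 to 3 carry out most of the oxidative drug metabolism of hepatocytes, and many members lie in tandem clusters of recently duplicated genes. Ligand-activated factors control several of them: the aryl hydrocarbon receptor Ahr acts on Cyp1a genes, and the nuclear receptors Nr1i2 (PXR) and Nr1i3 (CAR) act on Cyp2b, Cyp2c and Cyp3a genes.

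The libraries held 6171051 to 9157362 counts. Genes of the mitochondrial genome took 23.4% and 33.7% of the counts in the WT-Control libraries, 10.8% and 12.5% in the WT-EtOH libraries, and 18.3% to 22.1% in the 4 Elf4-/- libraries. Replicate 1 of the Elf4-/- EtOH group stood apart from the other 7 libraries on the second principal component, which held 12.9% of the variance. Nothing in the labels says how the replicates were drawn, so p-values measure the spread between these libraries, which may be technical. The 5 hepatocyte markers analysed were abundant in every library, but their sum was lower under EtOH. It was 53917 to 74457 CPM under Control against 32118 to 38906 under EtOH in WT livers, and 63837 to 70552 against 39458 to 52483 in Elf4-/- livers. The sums did not overlap between diets, but single markers did. Ttr read 4633 and 6863 CPM under Control against 5091 and 5412 under EtOH in WT. Its diets overlapped in Elf4-/- as well, as did those of Serpina1a and Fgb there. Of the 5, the apolipoprotein gene Apoa1 alone passed, falling in WT by 2.34 (adjusted p = 0.00593, edgeR), while none passed in Elf4-/-. The part of this shift in the results was not tested. In whole liver, fewer cells of a type and less RNA per cell cannot be told apart.

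As a sum, these enzymes took a larger share of liver RNA in the EtOH libraries. Members took 1.04% ± 0.0976 of all counts in WT livers under Control and 2.35% ± 0.204 under EtOH, and 1.28% ± 0.0247 and 2.28% ± 0.540 in Elf4-/- livers (mean ± SD, n = 2). Summed over members, the scaled level was 11484 and 12518 CPM in WT livers under Control and 19491 and 20967 CPM under EtOH. It was 11828 and 13566 CPM in Elf4-/- Control against 27889 and 18543 CPM in Elf4-/- EtOH. The EtOH libraries lay above the Control libraries in both genotypes, with no overlap. No test was run on these sums.

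**Figure D1:**
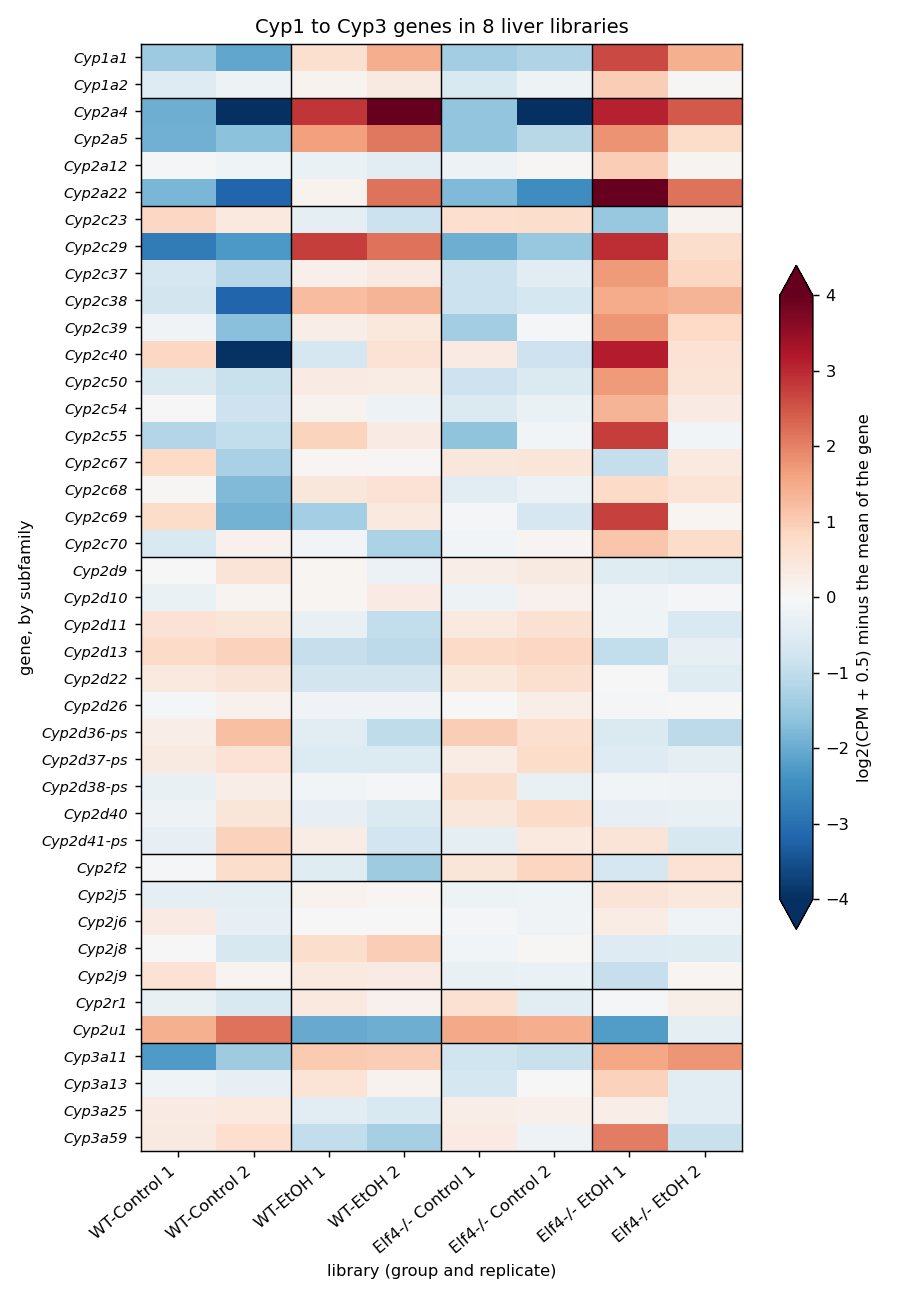
Level of each of the 41 genes (one line per gene, grouped by subfamily) in each of the 8 libraries, as log2(CPM + 0.5) minus the mean of that gene over the libraries. Red is above and blue below the mean of the gene, and values beyond 4 in either direction take the end colour; Cyp2a4, Cyp2a22 and Cyp2c29 are blue in all 4 Control libraries and red or pale in all 4 EtOH libraries.

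The make-up of the group differed between diets, with less Cyp2d and more Cyp2a under EtOH. With levels divided by exon length (CPM per kilobase of exon, available for 40 of the 41 genes), Cyp2d genes held 34.0% ± 4.27 of the summed level in WT-Control and 16.0% ± 1.09 in WT-EtOH. Cyp2a genes went the other way, from 7.25% ± 0.0466 to 36.2% ± 6.45. In Elf4-/- livers the Cyp2d share was 33.8% ± 0.0692 under Control and 13.99% ± 4.84 under EtOH, and the Cyp2a share was 8.50% ± 0.672 and 24.1% ± 4.82. The Cyp2c share was 20.0% ± 7.07 and 20.8% ± 3.88 in WT, and 20.4% ± 0.244 and 27.7% ± 3.70 in Elf4-/-. In WT the Cyp2d sum itself differed by less than the SD of the WT-Control libraries, at 1566 ± 276 and 1352 ± 11.7 CPM per kilobase, although both EtOH libraries lay below both Control libraries. In Elf4-/- livers it was 1648 ± 194 under Control and 1226 ± 26.2 under EtOH, again without overlap and by more than either SD. The Cyp2a sum was 333 ± 19.1 and 3087 ± 782 in WT, and 417 ± 80.7 and 2309.6 ± 1178 in Elf4-/-. Cyp2d13 has no annotated exon length here and is not in these sums.

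**Figure D2:**
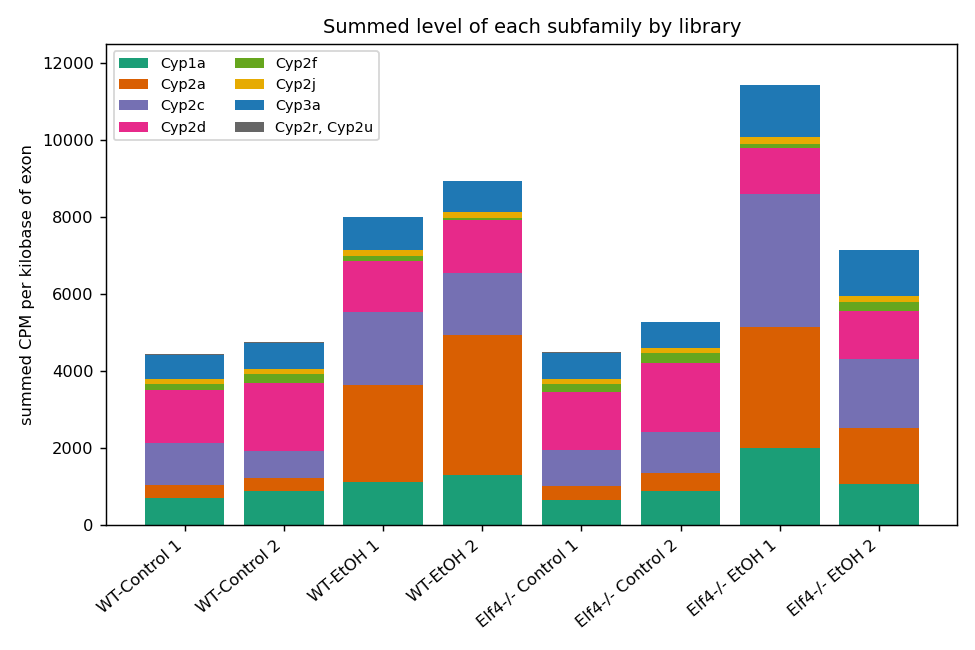
Summed length-scaled level (CPM per kilobase of exon) of each subfamily, stacked from 0, in each of the 8 libraries. The Cyp2a part reaches 2534 and 3640 in the WT-EtOH libraries and 320 and 347 in the WT-Control libraries, and the tallest column is Elf4-/- EtOH replicate 1.

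RefSeq promoters (GRCm38.p6) were matched for 32 of the 41 members, 34 promoters in all, and the 250 bases before each start were searched on both strands. The Ahr core GCGTG was found in the promoters of 3 members, Cyp1a1, Cyp2c68 and Cyp2j9, and in 28.2% of all 32851 promoters. The half-site AGTTCA, bound by the nuclear receptors Nr1i2 and Nr1i3, was found in 5 members, among them Cyp3a11 and Cyp2c50, and in 11.8% of all promoters. Single half-sites were searched for, not spaced pairs of them. The Hnf4a core CAAAGTCC was found in 8 members (Cyp2a4, Cyp2a5, Cyp2c40, Cyp2c67, Cyp2c68, Cyp2c69, Cyp2c70 and Cyp3a11) and in 1.2% of all promoters. The Stat5 element TTCNNNGAA was found in no member and in 7.02% of all promoters, and TATAA in 20 members and 22.8% of all promoters. Matches of TATAA on opposite strands can overlap, as in TTATAA, and duplicated genes share much of their promoter sequence, so the matches are not independent.

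The promoters of 6 of the genes that rose in both genotypes are shown, 5′ to 3′ on the strand of the gene, as examples of the matches just described. Cyp2c38 and Cyp2c37, which also rose in both, are not shown. Cyp2c38 carries TATAA, while the promoter of Cyp2c37 had no match to any of the searched motifs. Capitals mark a match to any of the searched motifs, and bases inside an exon of GENCODE M21 are left out. Cyp1a1 is at chr9:57697363-57697612 (+), Cyp2a4 at chr7:26306942-26307168 (+), Cyp2a5 at chr7:26835089-26835304 (+), Cyp2a22 at chr7:26939387-26939636 (-), Cyp2c29 at chr19:39286835-39287073 (+) and Cyp3a11 at chr5:145879965-145880104 (-).
Cyp1a1: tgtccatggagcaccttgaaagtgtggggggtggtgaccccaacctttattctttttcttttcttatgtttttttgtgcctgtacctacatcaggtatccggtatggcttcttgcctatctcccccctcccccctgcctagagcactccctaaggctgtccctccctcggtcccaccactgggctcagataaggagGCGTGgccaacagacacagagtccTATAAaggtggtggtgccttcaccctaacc
Cyp2a4: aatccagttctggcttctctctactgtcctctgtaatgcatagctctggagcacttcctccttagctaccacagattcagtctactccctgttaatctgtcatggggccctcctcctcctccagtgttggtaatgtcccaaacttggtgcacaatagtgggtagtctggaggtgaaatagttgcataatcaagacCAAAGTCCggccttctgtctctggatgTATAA
Cyp2a5: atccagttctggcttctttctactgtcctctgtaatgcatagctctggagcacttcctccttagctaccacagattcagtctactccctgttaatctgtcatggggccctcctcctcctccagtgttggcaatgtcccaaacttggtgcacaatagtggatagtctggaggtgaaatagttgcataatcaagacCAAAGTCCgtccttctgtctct
Cyp2a22: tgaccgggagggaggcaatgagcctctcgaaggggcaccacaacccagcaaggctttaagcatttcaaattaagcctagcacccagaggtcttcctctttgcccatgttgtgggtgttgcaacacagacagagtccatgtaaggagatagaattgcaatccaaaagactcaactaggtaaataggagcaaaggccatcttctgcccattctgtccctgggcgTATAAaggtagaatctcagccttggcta
Cyp2c29: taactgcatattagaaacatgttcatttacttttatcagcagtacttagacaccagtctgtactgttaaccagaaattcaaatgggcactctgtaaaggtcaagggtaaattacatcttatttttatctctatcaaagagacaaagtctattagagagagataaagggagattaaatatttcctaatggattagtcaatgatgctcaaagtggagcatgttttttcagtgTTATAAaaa
Cyp3a11: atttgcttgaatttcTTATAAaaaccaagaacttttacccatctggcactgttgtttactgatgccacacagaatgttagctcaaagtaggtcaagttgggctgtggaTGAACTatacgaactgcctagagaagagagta
The Ahr core of Cyp1a1 began 54 bases before the start, the AGTTCA match of Cyp3a11 lay on the opposite strand and began 142 bases before it, and the CAAAGTCC matches of Cyp2a4 and Cyp2a5 began 55 and 56 bases before it. The CAAAGTCC match of Cyp3a11, 109 bases before the start, lies in an exon of GENCODE M21 and is not printed. The TATAA matches of Cyp2a5 and Cyp3a11 that began 29 and 41 bases before the start are likewise not printed. Over 250 bases the Cyp2a4 and Cyp2a5 promoters were identical at 245 of 251 aligned columns (97.6%).

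The diet comparison within each genotype asks how alcohol changed the enzymes with and without intestinal Elf4. It was tested for every gene with edgeR's quasi-likelihood test and Benjamini-Hochberg adjustment at 0.05, and fold changes are on the log2 scale with their standard errors. In WT livers 14 of the 41 members (34.1%) passed, 8 higher and 6 lower under EtOH, where 21.6% of all genes tested passed (10.8% higher and 10.8% lower). In Elf4-/- livers 12 members (29.3%) passed, 9 higher and 3 lower, where 2.89% of all genes passed (1.71% higher and 1.18% lower). The median log2 fold change of the members was 0.01 in WT and 0.65 in Elf4-/-, against 0.01 for all genes in each. These medians rested on single libraries: the Elf4-/- median was 0.022 without Elf4-/- EtOH replicate 1, and the WT median was 0.47 without WT-Control replicate 1 and 0.45 under library totals. These comparisons share no library, but both came from 1 fit of all 8 libraries with a shared estimate of the spread. The same 11 genes passed in both, each in the same direction, which is 78.6% of the WT calls and 91.7% of the Elf4-/- calls. The matching overlap over all genes was not counted, so these shares cannot be called particular to the members. Scaling by library totals in place of TMM moved the median of all genes in WT by 0.43. It gave 17 calls there, 13 higher and 4 lower, where 28.9% of all genes passed. Fold changes in WT are thus relative to the scaling chosen. Of the 14 WT calls, 8 held when each library in turn was left out (Cyp1a1, Cyp2a4, Cyp2a5, Cyp2c29, Cyp2c38, Cyp3a11, Cyp2d13 and Cyp2u1). The 12 calls in Elf4-/- rested on both Control libraries, as did calls over all genes tested. Without Elf4-/- Control replicate 1 or 2, the Elf4-/- value was 2.55 or 2.46 for Cyp3a11, -2.53 or -2.57 for Cyp2u1 and 7.94 or 4.46 for Cyp2a4. Only 3 members passed when the Elf4-/- libraries alone entered the fit, where 0.302% of all genes passed.

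**Figure D3:**
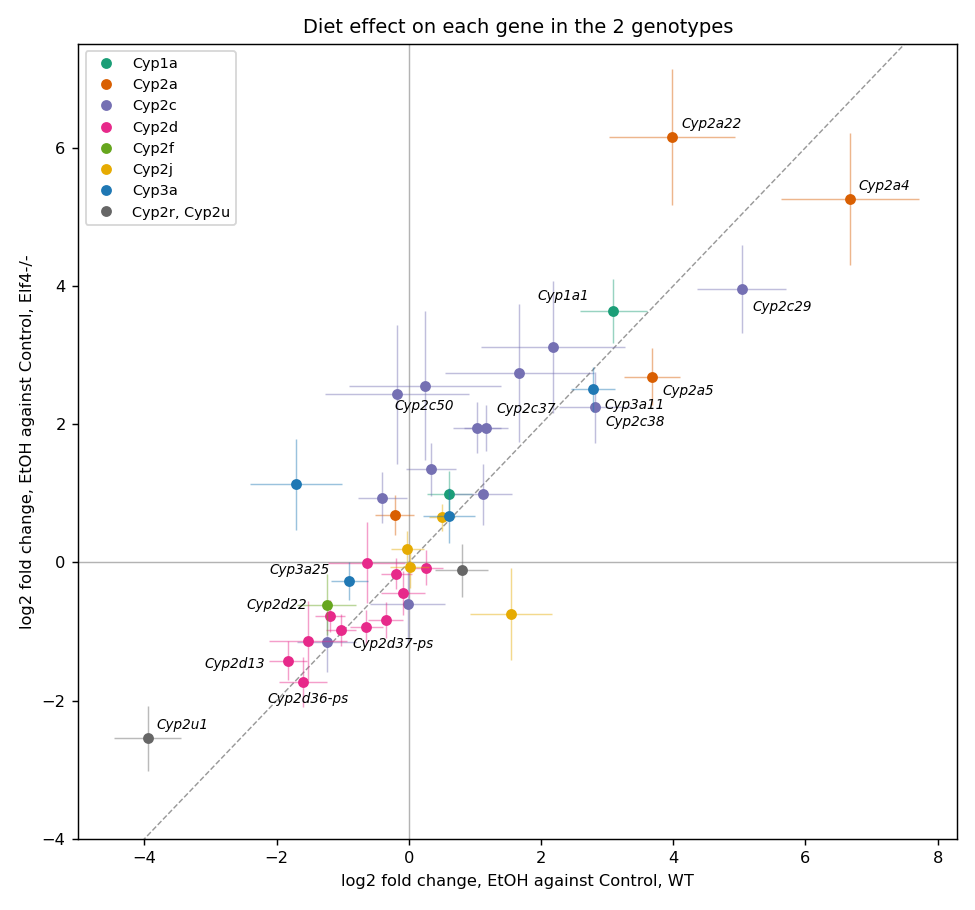
Log2 fold change of EtOH against Control for each of the 41 genes in WT (horizontal axis) and in Elf4-/- (vertical axis), with standard errors as bars, colours for subfamilies and a dashed line of equal change. Named genes passed the test in at least 1 genotype; Cyp2a4, Cyp2a22, Cyp2c29, Cyp2a5 and Cyp1a1 are at the upper right and Cyp2u1 at the lower left.

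The Cyp1a genes activate planar aromatic hydrocarbons and arylamines, and are adjacent on chromosome 9. Cyp1a1 (chr9:57687928-57703824, GENCODE M21 on GRCm38) was scarce under Control, at 2.79 and 1.65 CPM in WT and 2.97 and 3.42 in Elf4-/-. Under EtOH it reached 13.8 and 24.3 CPM in WT and 55.8 and 23.7 in Elf4-/-. All 4 EtOH libraries lay above all 4 Control libraries, and Cyp1a1 rose in WT by 3.10 ± 0.51 (adjusted p = 0.00435, edgeR) and in Elf4-/- by 3.64 ± 0.47 (adjusted p = 0.00973). Cyp1a2, the constitutive member and the more abundant per length, read 1417 and 1740.1 CPM in WT livers on Control and 2219 and 2602 on EtOH, with 1316 and 1741 against 3958 and 2091 without intestinal Elf4. Its groups did not overlap either, but its log2 fold changes of 0.61 ± 0.34 and 0.98 ± 0.34 did not pass (adjusted p = 0.227 and 0.142, edgeR).

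The Cyp2a genes, on chromosome 7, had 3 of 4 members higher under EtOH in each genotype, and their median log2 fold changes of 3.83 in WT and 3.97 in Elf4-/- were the largest of the 8 subfamily groups. Cyp2a5 (chr7:26835305-26843548), the coumarin hydroxylase of mouse liver, was the most abundant of all members per length by its mean over the 8 libraries. Under Control, however, Cyp1a2 was above it in both genotypes. In WT livers Cyp2a5 read 408 and 490.0 CPM under Control and 4790.4 and 6665 under EtOH, and in Elf4-/- livers 513 and 717 against 5373 and 2552. The lowest EtOH library was thus above the highest Control library. Cyp2a5 rose in WT by 3.67 ± 0.42 (adjusted p = 0.0015, edgeR), a 12.8-fold increase, and in Elf4-/- by 2.69 ± 0.41 (adjusted p = 0.0161).

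Cyp2a4 (chr7:26307169-26315088), a testosterone hydroxylase that is higher in female than in male liver, had the largest rise in WT. Its levels were 195 and 526 CPM in WT livers on EtOH where Control livers had 6.51 and 0.551, and 228 and 147 in Elf4-/- livers on EtOH where Control livers had 8.49 and 0.744. The log2 rise was 6.67 ± 1.05 in WT and 5.26 ± 0.96 in Elf4-/- (adjusted p = 0.00359 and 0.0273, edgeR). The Control replicates differed widely in both genotypes, while every EtOH library lay far above every Control library. Per kilobase the mean WT-Control level was 2.03 CPM for Cyp2a4 and 217 CPM for Cyp2a5, with the near-identical promoters printed above. Counting could split reads between them, since 11.2% of the 100-base windows of the Cyp2a4 transcript also occur in Cyp2a5. An antisense gene on the other strand of Cyp2a4, Gm42375, was at 0 counts in both WT-Control libraries and had 14 and 52 in the WT-EtOH libraries, and without a stated strand setting the pair cannot be told apart where they overlap.

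Cyp2a22 had the largest rise in Elf4-/-. It read 5.96 and 2.02 CPM under Control and 24.7 and 101 under EtOH in WT livers, and 6.24 and 3.57 against 612 and 103 in Elf4-/- livers. It rose by 3.98 ± 0.96 in WT and 6.15 ± 0.99 in Elf4-/- (adjusted p = 0.0178 and 0.0183, edgeR). The WT call was lost when WT-EtOH replicate 2, WT-Control replicate 1 or WT-Control replicate 2 was left out. Cyp2a12, the fourth gene and a bile acid and steroid hydroxylase, did not pass in either genotype, at -0.21 ± 0.29 and 0.69 ± 0.29.

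**Figure D4:**
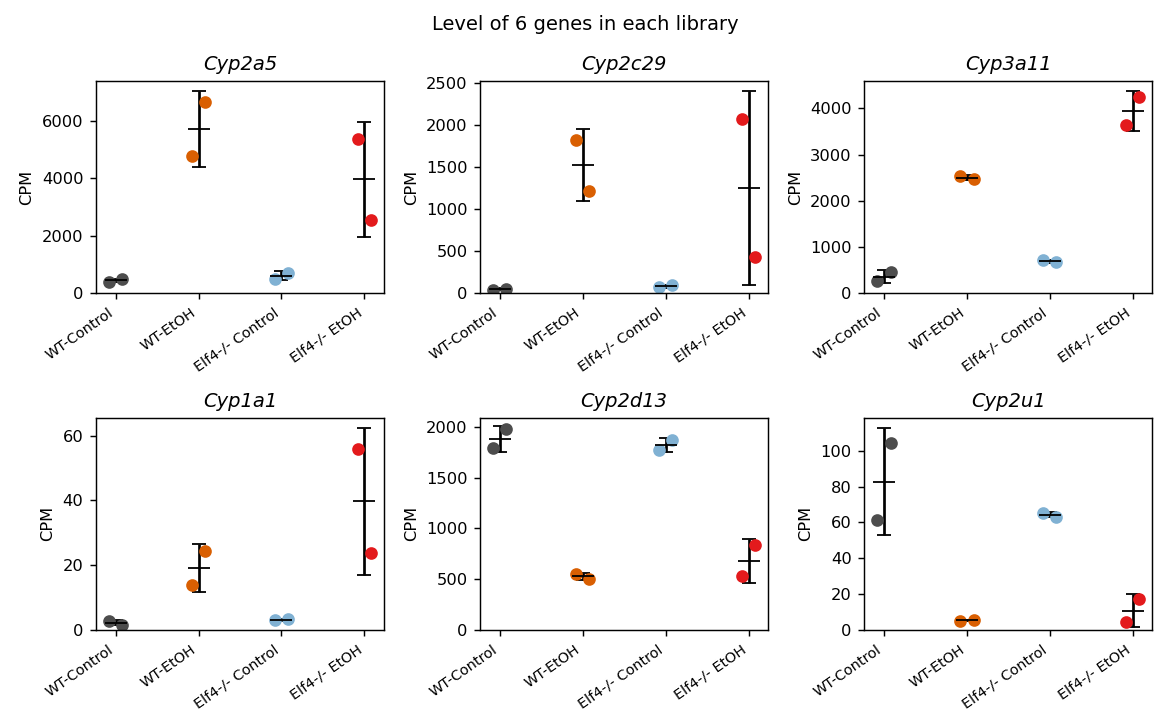
CPM of 6 genes in each library (points) with the mean and SD of each group (horizontal tick and bar, n = 2), on linear axes that start at 0. For Cyp2a5, Cyp2c29, Cyp3a11 and Cyp1a1 every EtOH library lies above every Control library, and for Cyp2d13 and Cyp2u1 every EtOH library lies below.

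The Cyp2c genes, which hydroxylate drugs, steroids and arachidonic acid, lie on chromosome 19 and split into those that rose and those that did not. In WT, 3 of 13 passed, all higher, and in Elf4-/- 4 of 13 passed, all higher. Cyp2c29 (chr19:39269405-39330713) changed most. It read 38.3 and 54.7 CPM in WT livers on Control and 1831 and 1220.0 on EtOH, with 68.9 and 93.1 against 2072 and 435 without intestinal Elf4. The lowest EtOH library was above the highest Control library, and the rise was 5.03 ± 0.67 in WT and 3.95 ± 0.63 in Elf4-/- (adjusted p = 0.00227 and 0.0183, edgeR).

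Cyp2c50 and Cyp2c37 were the most abundant Cyp2c genes per length, at means of 311 and 305 CPM per kilobase over the 8 libraries. Cyp2c50 read 948 and 921 CPM in WT livers on EtOH where Control livers had 507 and 407, and 2475 and 1089 in Elf4-/- livers on EtOH where Control livers had 422 and 502. It rose in Elf4-/- by 1.95 ± 0.37 (adjusted p = 0.0277, edgeR) and stood at 1.03 ± 0.36 in WT (adjusted p = 0.0657). Cyp2c37 rose in both, by 1.17 ± 0.33 and 1.94 ± 0.33 (adjusted p = 0.0318 and 0.0223), and the WT call was lost without any 1 of the WT or Elf4-/- Control libraries. Cyp2c38 rose by 2.82 ± 0.54 in WT (adjusted p = 0.0076) and by 2.24 ± 0.52 in Elf4-/-, where its adjusted p of 0.0499785 lay just under the threshold and the call was lost under DESeq2 (adjusted p = 0.0665).

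The other 9 Cyp2c genes did not pass in either genotype. Their fold changes ran from -1.25 (Cyp2c23) to 2.18 (Cyp2c55) in WT and from -1.15 (Cyp2c23) to 3.12 (Cyp2c55) in Elf4-/-. Several of these genes spread widely within a group, among them Cyp2c55 and also Cyp2c40 and Cyp2c69, which are higher in female liver. Cyp2c40 had 0 counts in WT-Control replicate 2, which allows up to 0.551 CPM, and 13.4 CPM in replicate 1. Cyp2c55 read 18.5 and 2.12 CPM in the Elf4-/- EtOH replicates. Cyp2c40, Cyp2c67, Cyp2c68 and Cyp2c69 share between 19.8% and 44.1% of their 100-base windows with other transcripts, so counting could split their reads.

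The Cyp2d genes, relatives of human debrisoquine hydroxylase are clustered on chromosome 15, and 4 of 11 passed in WT and 2 of 11 in Elf4-/-, all lower under EtOH. Cyp2d13 (chr15:82636750-82642045 in RefSeq) was the largest in counts. It read 1790.2 and 1974 CPM under Control and 553 and 504 under EtOH in WT livers, and 1773 and 1867 against 527 and 833 in Elf4-/- livers. All EtOH libraries lay below all Control libraries, and Cyp2d13 changed by -1.83 ± 0.28 in WT and -1.42 ± 0.28 in Elf4-/- (adjusted p = 0.00359 and 0.0319, edgeR).

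Cyp2d36-ps, a pseudogene, read 13.96 and 27.0 CPM in WT livers on Control and 8.20 and 5.39 on EtOH, with 23.2 and 18.8 against 7.48 and 5.30 without intestinal Elf4. It changed by -1.60 ± 0.36 and -1.73 ± 0.36 (adjusted p = 0.0136 and 0.0397, edgeR). Cyp2d22 and the pseudogene Cyp2d37-ps fell in WT, at -1.19 ± 0.23 and -1.02 ± 0.23 (adjusted p = 0.00811 and 0.0129), and their Elf4-/- values were -0.78 ± 0.23 and -0.98 ± 0.23 (adjusted p = 0.0948 and 0.0508). Neither passed the interaction test (adjusted p = 0.718 and 0.976). Among the 10 Cyp2d genes with an annotated length, the most abundant per length was Cyp2d10 (chr15:82402846-82407195), with 643 and 829 CPM (Control) and 811 and 960.0 CPM (EtOH) in WT, and 671 and 859.5 CPM (Control) and 695 and 752 CPM (EtOH) in Elf4-/-. Its groups overlapped, and its fold changes were 0.27 ± 0.25 and -0.08 ± 0.25.

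The Cyp3a genes, the main steroid and drug hydroxylases on chromosome 5, had 1 gene higher and 1 lower in WT, and 1 higher in Elf4-/-. Cyp3a11 (chr5:145854426-145879964), the gene most responsive to Nr1i2 ligands, read 2540.2 and 2468 CPM in WT livers on EtOH where Control livers had 258 and 465, and 3635 and 4256 in Elf4-/- livers on EtOH where Control livers had 717 and 672. It rose by 2.79 ± 0.33 in WT and 2.51 ± 0.33 in Elf4-/- (adjusted p = 0.00167 and 0.00973, edgeR), and its EtOH replicates were close. By its mean over the 8 libraries, Cyp3a25 was the most abundant per length. Under EtOH, however, Cyp3a11 was above it, at 492 against 287 CPM per kilobase in WT and 775 against 404 in Elf4-/-. Cyp3a25 read 1092 and 1137 CPM under Control and 632 and 563 under EtOH in WT livers, and 1025 and 1002 against 1044 and 640.4 in Elf4-/- livers. It fell in WT by 0.90 ± 0.28 (adjusted p = 0.044), which was lost when any 1 of the WT or Elf4-/- Control libraries was left out and under library totals, and the Elf4-/- value was -0.27 ± 0.27. Cyp3a13 stood at 0.61 ± 0.40 and 0.68 ± 0.40. Cyp3a59 had -1.71 ± 0.69 in WT and 1.13 ± 0.66 in Elf4-/-, where the replicates were 115 and 14.8 CPM.

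Among the remaining genes Cyp2u1 (chr3:131288441-131303227), a fatty acid hydroxylase that is higher in male than in female liver, had the largest fall. It read 61.6 and 104 CPM in WT livers on Control and 5.17 and 5.49 on EtOH, with 65.4 and 63.3 against 4.45 and 17.2 without intestinal Elf4. No EtOH library reached any Control library, and Cyp2u1 changed by -3.95 ± 0.50 in WT and -2.55 ± 0.47 in Elf4-/- (adjusted p = 0.00196 and 0.0274, edgeR). The antisense gene 4930534D22Rik, which overlaps 548 bases of its exons, had 9, 4, 13 and 7 counts in the Control libraries and 0, 1, 2 and 0 in the EtOH libraries. Cyp2f2, a periportal enzyme that activates naphthalene, read 221 and 115 CPM in WT livers on EtOH where Control livers had 299 and 498, and 195 and 457 in Elf4-/- livers on EtOH where Control livers had 434 and 563; its fold changes of -1.24 ± 0.44 and -0.61 ± 0.44 did not pass (adjusted p = 0.0708 and 0.453). Its antisense partner Gm15883, which overlaps 274 bases of its exons, had 295 and 402 counts under Control and 193 and 156 under EtOH in WT, and 721 and 520 against 143 and 329 in Elf4-/-, and the pair cannot be told apart there without a strand setting. Cyp2j5, an arachidonic acid epoxygenase and the highest Cyp2j gene per length, read 166 and 168 CPM under Control and 240.0 and 232 under EtOH in WT livers, and 191 and 194 against 312 and 293 in Elf4-/- livers. It was higher in each EtOH library than in each Control library at 0.50 ± 0.19 and 0.65 ± 0.19 (adjusted p = 0.0936 and 0.0959). Cyp2r1, a vitamin D hydroxylase, did not pass.

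By position in the lobule, 4 of 7 pericentral members rose in WT (Cyp2a5, Cyp2c29, Cyp2c37 and Cyp3a11) and 5 of 7 rose in Elf4-/- (these and Cyp2c50), and none fell. Of all genes tested, 10.8% passed higher in WT and 1.71% in Elf4-/-, and of all 41 members 8 and 9 did. The median log2 fold change of the 7 pericentral members was 1.17 in WT and 1.95 in Elf4-/-. The periportal list held Cyp2f2 only, so the positions were not compared. By sex bias, Cyp2a4 was the single gene that passed with edgeR among 3 tested genes known to be higher in female liver. Cyp2u1 was the single gene of the 2 known to be higher in male liver. Cyp2d9 stood at -0.35 ± 0.26 in WT and -0.83 ± 0.26 in Elf4-/- (adjusted p = 0.356 and 0.109, edgeR). DESeq2 called it in Elf4-/- (adjusted p = 0.0206). Bcl6, a male-biased repressor of female-biased genes, fell in WT by 3.42 ± 0.39 and in Elf4-/- by 2.08 ± 0.37 (adjusted p = 0.00147 and 0.0254, edgeR). Cux2, a female-biased transcription factor, rose in WT by 4.71 ± 1.32 (adjusted p = 0.032) and was 49.96 and 2.38 CPM in the Elf4-/- EtOH replicates. The WT call of Cux2 was lost without either WT-Control replicate, WT-EtOH replicate 2 or either Elf4-/- Control replicate (adjusted p up to 0.162), and that of Bcl6 held with each library left out. The whole list of 9 growth hormone signalling genes had 2 higher and 1 lower in WT and 0 higher and 1 lower in Elf4-/-. Of all genes tested, 21.6% passed in WT and 2.89% in Elf4-/-, in either direction. The same shares apply beside the counts for the gene and marker lists that follow.

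Of 16 receptors and factors, 1 fell in WT (Nr0b2, a corepressor, by 1.45 ± 0.30, adjusted p = 0.0107, edgeR) and none passed in Elf4-/-. The Nr0b2 call was lost without WT-Control replicate 1 or WT-EtOH replicate 2 (adjusted p up to 0.102). Ahr read 34.2 and 43.0, 24.5 and 34.1, 33.2 and 61.3, and 43.0 and 33.8 CPM in the Control and EtOH groups of WT and then of Elf4-/- livers. Nr1i2 read 157 and 132, 129 and 102, 158 and 185, and 159 and 87.4 CPM in that order, and Nr1i3 read 584 and 446, 566 and 785, 668 and 959.7, and 747 and 658 CPM. Their diet fold changes lay between -0.48 and 0.39, with adjusted p of 0.346 to 0.715. Of 4 tested genes among 6 further Ahr targets, Nqo1 rose in WT by 3.80 ± 0.60 and in Elf4-/- by 3.47 ± 0.57 (adjusted p = 0.00365 and 0.0192, edgeR). The other 3 did not pass: Cyp1b1 (2.14 in WT and 1.80 in Elf4-/-), Tiparp (0.65 and 0.62) and Ugt1a6a (-0.38 and -0.68).

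Por, the reductase that feeds all microsomal P450 enzymes, read 112 and 140.3 CPM under Control and 426 and 416 under EtOH in WT livers, and 154 and 311 against 619 and 254 in Elf4-/- livers. It rose in WT by 1.74 ± 0.43 (adjusted p = 0.0196, edgeR) and stood at 0.91 ± 0.42 in Elf4-/- (adjusted p = 0.25). Alas1, the rate-limiting enzyme of heme synthesis, read 103 and 157 CPM in WT livers on Control and 709 and 873 on EtOH, with 220.1 and 617 against 225 and 1200.5 without intestinal Elf4. It rose in WT by 2.61 ± 0.70 (adjusted p = 0.0275), and the Elf4-/- value of 0.77 ± 0.66 did not pass (adjusted p = 0.541). Of the 5 electron donors, 2 rose and 1 fell in WT and 1 rose in Elf4-/-. Of the 12 genes of heme synthesis and breakdown, 5 rose and 1 fell in WT and 2 rose in Elf4-/-. Cpox and Blvrb rose in both genotypes, and Hmox1, heme oxygenase, rose in WT by 2.39 ± 0.55. The WT calls of Por, Alas1 and Hmox1 were each lost when any 1 of the 4 WT libraries was left out, with adjusted p up to 0.121, 0.155 and 0.0880 by edgeR. The WT call of Cpox was lost without WT-Control replicate 1 or either WT-EtOH replicate (adjusted p up to 0.0759), while those of Blvrb and Nqo1 held. The Elf4-/- calls of Cpox, Blvrb, Nqo1 and Bcl6 were lost without either Elf4-/- Control replicate, and that of Cpox also without any other library except Elf4-/- EtOH replicate 2.

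Markers of 3 other liver cell types passed higher under EtOH in WT. The 6 Kupffer cell markers summed to 151 and 199 CPM in WT livers under Control and 504 and 557 under EtOH, and 6 of 6 passed higher. The 5 endothelial markers summed to 43.9 to 74.3 against 206 to 251 CPM (5 of 5 higher), and the 5 stellate markers to 25.3 to 63.5 against 223 to 292 CPM (3 of 5 higher). In Elf4-/- livers the Kupffer markers summed to 139 to 142 CPM under Control and 188 to 199 under EtOH, with 1 of 6 higher. The stellate markers summed to 76.8 to 109 against 178 to 303 CPM there, without overlap and with 0 of 5 past the test, and the endothelial markers to 110 to 112 against 104 to 172 CPM, with overlap and 0 of 5 past it. None of the 4 bile duct, 2 neutrophil (S100a8 and S100a9), 3 intestinal epithelium (Vil1, Fabp2 and Lgals4) and 1 pancreatic acinar (Cela1) markers analysed passed in either genotype, and another 2, 2 and 3 markers of the last 3 lists were not analysed here. None of the markers analysed was at 0 in every library, and the part of these cells in the results was not tested.

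The genotype comparison asks whether intestinal Elf4 deletion changed the hepatic enzymes under either diet. No member passed under EtOH (0.143% of all genes passed), under Control (0.0143%) or in the interaction of genotype and diet (0% of all genes) by edgeR's quasi-likelihood test. At an unadjusted p under 0.05 the counts were 11, 1 and 3 of 41, where 10.5%, 7.31% and 10.1% of all genes fell under it. DESeq2 called none in the others and 1 member under EtOH, where it called 1.3% of all genes. This was Cyp2c70, which makes muricholic acids, at 126 and 55.9 CPM in WT-EtOH and 289.5 and 223 in Elf4-/- EtOH. The log2 fold change of Cyp2c70 was 1.50 ± 0.38 with edgeR (adjusted p = 0.202) and 1.50 with DESeq2 (adjusted p = 0.0044). Under Control the lowest p belonged to Cyp3a11, at 0.94 ± 0.31 (adjusted p = 0.523), whose Elf4-/- Control libraries lay above both WT-Control libraries.

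The Elf4-/- EtOH replicates themselves were unlike. They differed by more than 2-fold in 16 of the 41 members, where 13.0% of all genes differed by as much, against 9 members in WT-Control (10.2%), 6 in WT-EtOH (3.76%) and 6 in Elf4-/- Control (4.90%). Which genes separated the genotypes depended on which replicate was used. Without replicate 1, Cyp2c29 was lower in Elf4-/- EtOH than in WT-EtOH, at -1.80, and Cyp2u1 higher, at 1.69. Without replicate 2 these values were 0.43 and -0.27. Cyp3a59 and Cyp2a22 stood at 3.23 and 3.26 without replicate 2, and at 0.28 and 0.71 without replicate 1. Cyp1a1, Cyp2a12, Cyp2c37 and Cyp2c50 stood at 1.30 to 1.54 without replicate 2 and at 0.23 to 0.55 without replicate 1. Cyp2j9 stood at -1.29 and -0.29 in that order. These fits leave 1 library in the group, so only effect sizes are given. The sign of the genotype difference was opposite in 11 of 41 members between these fits. The matching share over all genes was not counted. The CAR-responsive neighbour Cyp2b10, which is not a member, was 259.8 and 1.72 CPM in the same replicates.

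**Figure D5:**
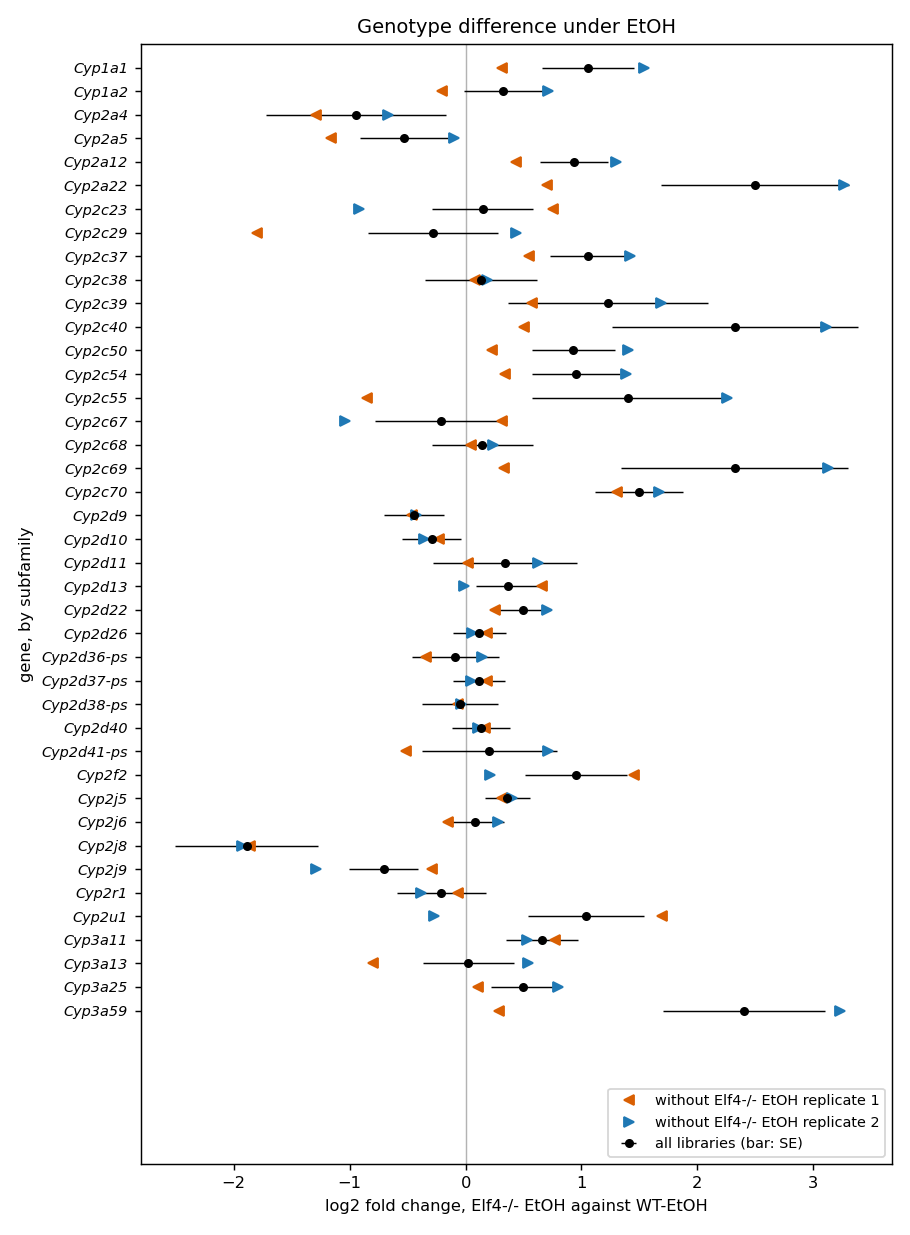
Log2 fold change of Elf4-/- EtOH against WT-EtOH for each of the 41 genes with all libraries (black points, bars are standard errors), and with Elf4-/- EtOH replicate 1 (orange) or replicate 2 (blue) left out. The orange and blue points lie on opposite sides of 0 for 11 genes, among them Cyp2c29 and Cyp2u1, and close together for Cyp2j5, Cyp2j8 and Cyp2d10.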

How the data were processed

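Liver RNA was sequenced by the authors (total RNA per the labels, mRNA per the study's methods). Per the submitters' processing notes, HISAT2, SAMtools, HTSeq and DESeq2 were used with mm10, and their versions, the annotation, the strand setting and the treatment of multiply mapped reads are not given in the sources used here. The deposited values are raw counts per gene, and all 8 columns of counts were used. The members and all gene lists were chosen with earlier results of these data known.

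Counts were analysed in R 4.3.3 with edgeR 4.0.16 (TMM scaling, filterByExpr by group, quasi-likelihood test, all 8 libraries in 1 fit, Benjamini-Hochberg adjustment over 13993 genes). The standard error is the log2 fold change divided by the square root of F. CPM are TMM-scaled. The dispersion corresponded to a biological coefficient of variation of 22.7%. Lengths are union exons of GENCODE M21 (GRCm38), which lacks Cyp2d13. Gene positions are from the same annotation. Fits were tested on simulated data. Intervals were not computed, and the floor of 3 counts covers counting error only.

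Values in every library are given for the most abundant member of each subfamily per length, the members with the largest rise and fall past the threshold in each subfamily and diet comparison, Ahr, Nr1i2, Nr1i3, Por and Alas1. Other members are named where they pass or account for a group. Alternatives were DESeq2 1.42.0, other scalings, no filter, fewer groups, a replicate block, single libraries left out, a mean of 50 counts and a threshold of 0.1. Promoters and their alignment used Python 3.11.15 and Biopython 1.88.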

Additional observations from a re-analysis of the deposited data

Results flagged for a closer look

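In 2 members, Cyp2a12 and Cyp2j8, both EtOH libraries lay on one side of both Control libraries in WT and on the opposite side in Elf4-/-. Cyp2a12 read 357 and 319.7 CPM in WT livers on EtOH where Control livers had 406 and 378, and 837 and 455 in Elf4-/- livers on EtOH where Control livers had 365 and 438, and the difference between the diet effects was 0.90 (adjusted p = 0.508, edgeR's quasi-likelihood test of the interaction). Cyp2j8, at 0.551 to 2.75 CPM in every library, was higher under EtOH in WT and lower in Elf4-/-, and the difference was -2.28 (adjusted p = 0.442). Neither difference passed the threshold. Of all genes tested, 562 of 13993 (4.02%) showed the same pattern of opposite shifts, against 2 of 41 members (4.88%). Groups of 2 libraries are too small to test for a library that stands apart.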

How the results depend on the processing

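In the diet comparisons every call made under an alternative kept the direction of the reported value. In WT, leaving out single libraries gave 8 to 19 calls, with 8 without WT-EtOH replicate 2 and 9 without WT-Control replicate 2. In Elf4-/-, it gave 0 to 22 calls (0 without either Elf4-/- Control replicate, 22 without Elf4-/- EtOH replicate 2, 7 without either WT-EtOH replicate), DESeq2 gave 20, and the Elf4-/- libraries alone gave 3. Under EtOH the genotype comparison gave 0 to 7 calls with single libraries left out and 1 (Cyp2c70) by DESeq2, and the interaction gave 0 to 1 (Cyp2c29 at -2.61 without Elf4-/- EtOH replicate 1, Cyp3a59 at 3.65 without replicate 2). Apart from the fewer libraries tested, the cause was not tested. Library totals moved the all-gene median by 0.43 in WT and turned the sign of Ahr (0.036), Nr1i2 (0.11), Cyp2d26 (0.24) and Cyp2d9 (0.070) there. With single libraries left out, the Elf4-/- diet value ranged from -0.91 to 1.70 for Alas1, -0.68 to 0.20 for Ahr, -0.45 to 0.072 for Nr1i3, -0.25 to 0.11 for Cyp2d10 and -0.66 to 0.022 for Cyp3a25. The genotype value under EtOH ranged from -1.80 to 0.43 for Cyp2c29 and from -0.27 to 1.69 for Cyp2u1. None of these values with a turned sign passed the threshold. Replicate numbers are shared between groups, but same-numbered libraries did not deviate together (r from -0.109 to 0.0594). With 2 libraries a group these r cannot exclude a pairing, and the labels do not say how the replicates were drawn. A fit with the replicate block gave 14 and 10 calls in the diet comparisons (18.9% and 1.8% of all genes) and 0 in the others, losing Cyp2c38 and Cyp2d36-ps in Elf4-/-. The remaining alternatives kept the counts within 1.5 times the reported ones. With 2 libraries a group and 6171051 to 9157362 counts each, genes near the floor of 3 counts, such as Cyp2j8 and Cyp2c39, are the least certain.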
